A study of Mus musculus with 12 samples.

Results

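Sprouty and SPRED proteins, dual-specificity phosphatases of the MAP kinase phosphatase family and the ETS factors Etv4 and Etv5 were examined as the feedback and output layer of the RAS/MAPK pathway in 4T1 cells primed by Gr1+CD11b+ cells. The set held 10 genes, named by symbol, of 35521 mouse genes with a listed transcript, and all 10 were among the 12555 genes with enough counts to be tested. The set was chosen by a measured value: it was taken up because Spry1 was lower in the tumor-primed cells. The Spry1 values of the 3 groups, and every difference between the tumor-primed and the spleen-primed cells, are therefore given here as a description with no test.

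RNA was measured in 3 groups of 4 libraries from 4T1, a mouse mammary carcinoma line of BALB/c origin. Tu-Gr1+CD11b+–primed 4T1 cells (label 4T1_MDSC_T) had shared a Transwell with Gr1+ cells from 4T1 tumors for 48 hours, Spl-Gr1+CD11b+–primed 4T1 cells (4T1_MDSC_S) with Gr1+ cells from the spleens of BALB/c mice that carried such tumors, and parental 4T1 cells (4T1) carry no coculture in their labels. The Gr1+ cells were isolated with magnetic columns on day 21 after tumor injection, according to the labels, and were kept apart from the 4T1 cells by pores of 0.4 µm. The paper's coculture methods give a later day of isolation, whereas the legend of its coculture figure gives day 21, as the labels do. Isolation was by Gr1 alone, the labels name no genetic change in the 4T1 cells, and they do not say whether replicates came from separate cultures or mice, so that the p-values measure the spread between these libraries, which may be technical.

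Growth factors that bind receptor tyrosine kinases switch on RAS, which passes the signal through the kinases RAF and MEK to ERK. Active ERK raises the transcription of its own inhibitors: Sprouty and SPRED proteins act between the receptor and RAF, and dual-specificity phosphatases remove the activating phosphates from ERK and related kinases. Etv4 and Etv5 are transcription factors of the PEA3 subfamily of ETS proteins whose genes are induced downstream of FGF and ERK signals, and the pathway is well known in mammary gland branching and in breast cancer.

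Library totals lay between 24566183 and 31637755 estimated counts, and the members' counts lay between 332 for Spry4 and 9927 for Dusp6 in a library. Values are CPM, counts divided by the library total and scaled by the TMM method, unless TPM is named. Of 10 mammary epithelium markers, Krt8, Krt18, Epcam and Cdh1 were high in every library, whereas Elf5 stayed at or below 4 counts and Krt14 at or below 14. The summed epithelial markers lay between 2011 and 2468 CPM, not TMM scaled, in the tumor-primed, 2432 and 2721 in the spleen-primed and 2544 and 3508 in the parental libraries, without overlap between tumor-primed and parental cells. Most of this sum came from Krt8, Krt18 and Krt7. Krt8 had 22220 to 28121 counts in the tumor-primed and 29182 to 47203 in the parental libraries. Not every marker followed the sum: Cldn4 had 916 to 1219 and 614 to 947 counts, and Epcam 1897 to 2466 and 1557 to 2222, in the same order. Of 13 granulocyte markers, 11 had at most 10 counts in every library and Mpo, Elane and Camp were at 0, and the summed granulocyte markers lay between 95 and 199 counts in the tumor-primed, 93 and 147 in the spleen-primed and 96 and 142 in the parental libraries. Nearly all of this sum came from S100a8 and Cxcr2. S100a8 had 82, 99, 84 and 47 counts in the tumor-primed, 37 to 54 in the spleen-primed and 42 to 62 in the parental libraries. Cxcr2 had 44 to 96, 48 to 86 and 41 to 70 counts in the same order. The summed monocyte or macrophage markers lay between 24.0 and 25.4 CPM, not TMM scaled, in the tumor-primed, 18.8 and 21.9 in the spleen-primed and 16.4 and 19.6 in the parental libraries, with Adgre1 and Ccr2 at 0. Most of this sum came from Cd14 (293 to 486 counts in a library), Cd68 (73 to 114) and Mrc1. Mrc1 had 99 to 103 counts in the tumor-primed, 60 to 111 in the spleen-primed and 37 to 66 in the parental libraries. The summed fibroblast markers lay between 80.0 and 102.8, 44.6 and 70.0, and 38.9 and 53.1 CPM in the same order, nearly all of it from Pdgfra, which is also among the receptors given with the pathway, while Lum was at 0 and Col1a1 at or below 4 counts. The share of counts on mitochondrial genes lay between 2.1% and 2.54% in the tumor-primed, 2.53% and 3.17% in the spleen-primed and 4.26% and 6.75% in the parental libraries, and the part of these differences in marker and mitochondrial levels in the members' values was not tested. Over all genes, parental libraries 1 and 2 differed from parental libraries 3 and 4 by a chi-square per degree of freedom between 22.3 and 64.7, compared with 6.0 between libraries 1 and 2 and 17.8 between libraries 3 and 4, so that replicates 3 and 4 also differed from each other, and spleen-primed library 3 differed from its group by 31.9 to 39.8. In bulk RNA, fewer cells expressing a gene and less RNA per cell cannot be told apart.

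Compared with parental 4T1 cells, the 10 genes did not move as a block. Of the 9 members other than Spry1, 2 were higher (Dusp5 and Dusp6) and 4 were lower (Spry2, Spred1, Dusp4 and Etv4) in Tu-Gr1+CD11b+–primed cells at an adjusted p below 0.05. These counts, 22.2% and 44.4% of the 9, stand beside a background of 31.2% of all tested genes called higher and 28.0% called lower. In Spl-Gr1+CD11b+–primed cells, 1 of the 9 was higher (Dusp6) and 3 were lower (Spry2, Spred1 and Dusp4), which is 11.1% and 33.3% of them beside 25.7% and 22.5% of all genes. The 4 libraries of a primed group lay entirely above or below the 4 parental libraries for 5 of the 9 members in the tumor-primed and for 4 of the 9 in the spleen-primed cells, where the same held for 55.5% and 39.6% of all tested genes. Between the tumor-primed and the spleen-primed cells, 3 members did not overlap (Spry1, Spry4 and Dusp6) beside 17.0% of all genes, and nothing is read from this count, because that contrast chose the set. The median log2 fold change against parental cells was -0.06 over the 9 members in the tumor-primed cells (-0.13 with Spry1) and -0.09 over the 9 in the spleen-primed cells (-0.04 with Spry1), compared with 0.02 over all 12555 genes in each. The 3 comparisons share libraries with each other and are not independent.

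**Figure D1:**
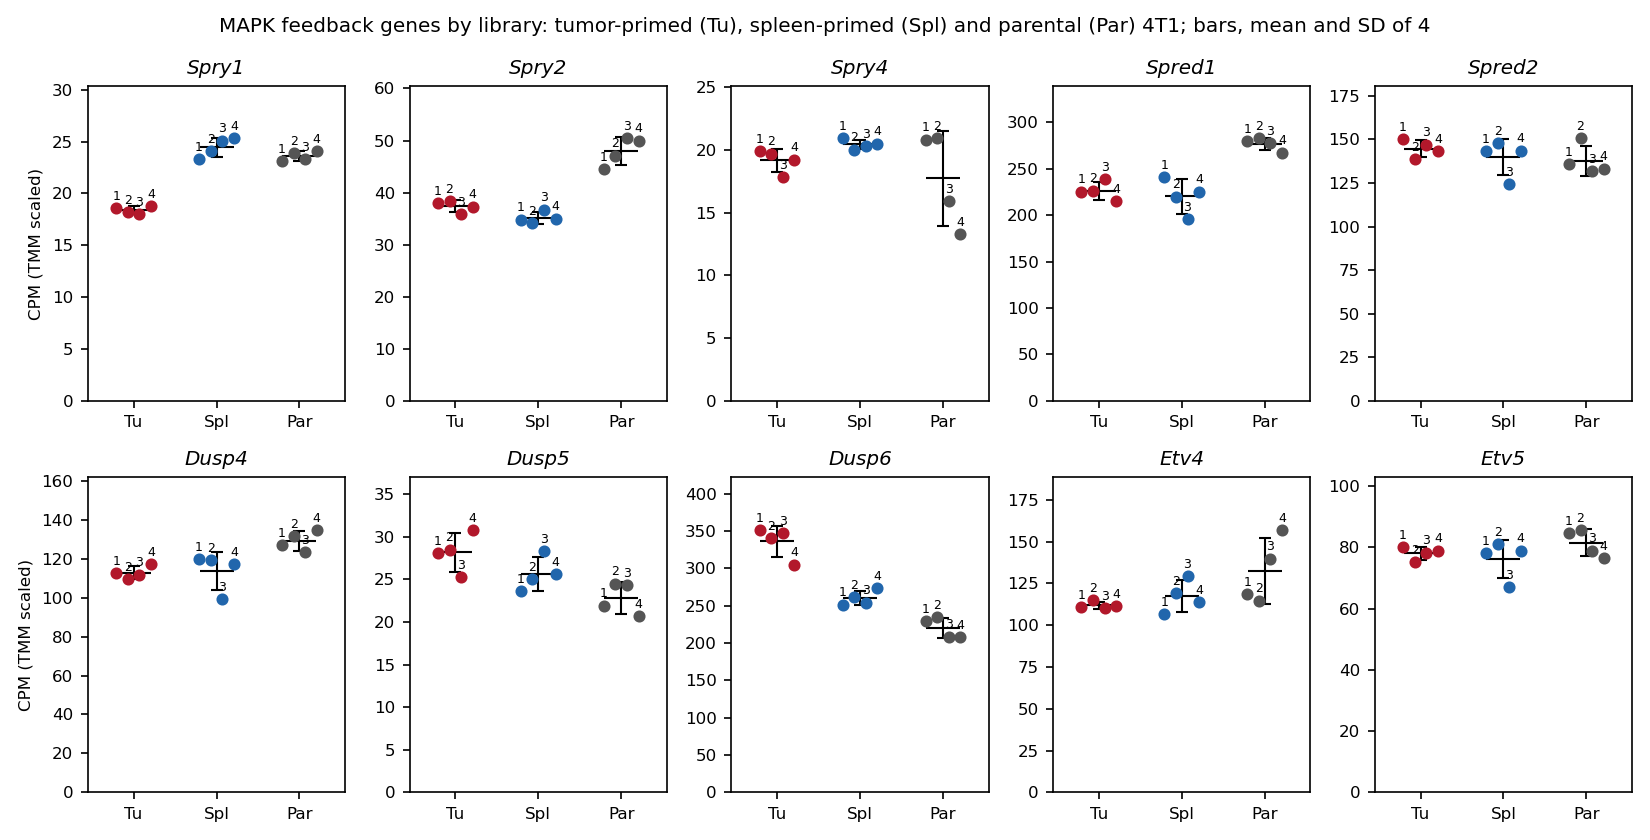
CPM (vertical axes, from 0) of each of the 10 genes in the 4 tumor-primed (Tu, red), 4 spleen-primed (Spl, blue) and 4 parental (Par, gray) libraries, with the replicate number above each point and the mean and SD as bars. Spry1 sits between 18.0 and 18.8 in the tumor-primed libraries and at or above 23.1 in the other 8, whereas Dusp6 steps down from tumor-primed through spleen-primed to parental cells. Parental replicates 3 and 4 lie apart from 1 and 2 for Spry4, Etv4, Spry2, Spred1, Spred2, Dusp6 and Etv5.

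**Figure D2:**
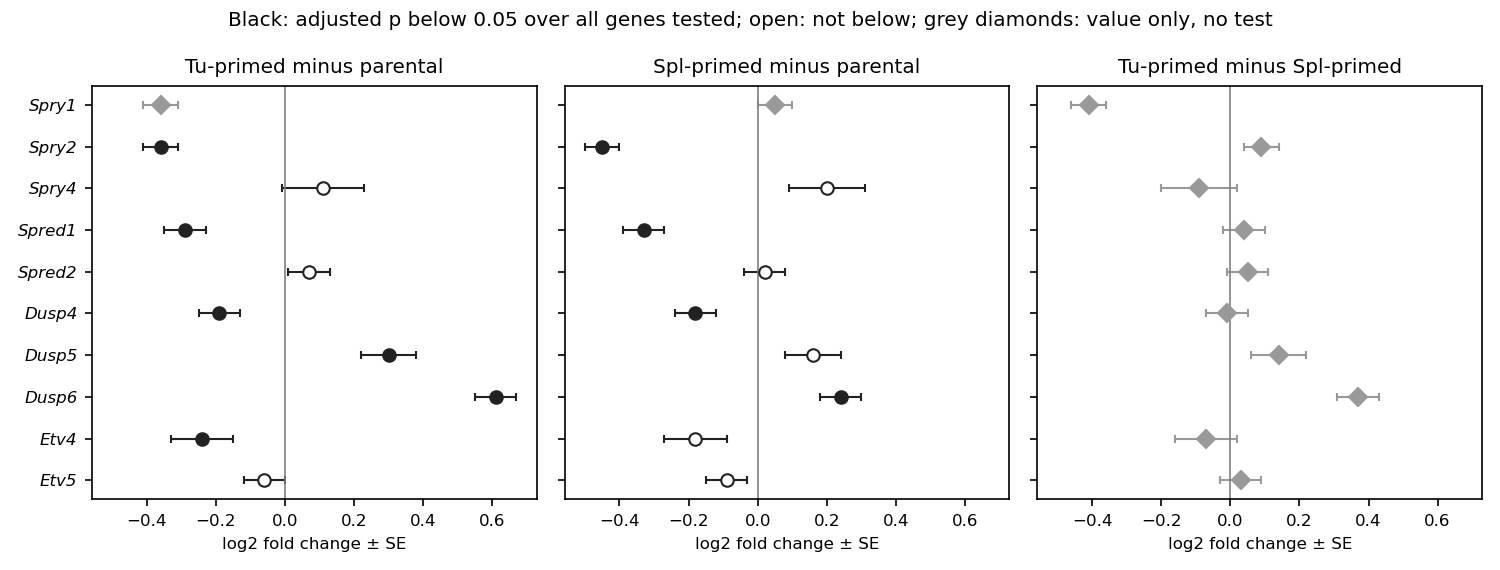
Log2 fold change (horizontal axes) with its standard error for the 10 genes in the 3 comparisons. Black points passed an adjusted p of 0.05 over all genes tested, open points did not, and gray diamonds are values given without a test. Dusp6 lies farthest to the right against parental cells (0.61 and 0.24), and Spry2 and Spred1 lie to the left in both primed groups.

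Sprouty proteins are membrane-recruited inhibitors that block RAS activation below receptor tyrosine kinases. Spry1 (ENSMUSG00000037211) lies on the plus strand of chromosome 3 at 37639947 to 37644598 in GRCm38 and has 3 annotated transcripts, all protein coding. The 250 bases before its start in RefSeq (GRCm38.p6, plus strand, chr3:37639697-37639946) are shown because Spry1 is the gene the set turns on. Capitals would mark any match to the motifs described with Dusp6, and this window holds none.

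Spry1: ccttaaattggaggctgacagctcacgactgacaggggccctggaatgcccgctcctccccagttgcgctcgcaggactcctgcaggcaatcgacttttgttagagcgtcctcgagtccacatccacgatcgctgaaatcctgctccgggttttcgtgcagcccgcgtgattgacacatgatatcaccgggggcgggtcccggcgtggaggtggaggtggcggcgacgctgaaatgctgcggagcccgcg

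Spry1 was lower in the tumor-primed cells than in the other 2 groups, and near parental cells in the spleen-primed cells. The tumor-primed libraries measured 18.6, 18.2, 18.0 and 18.8 CPM, the spleen-primed libraries 23.3, 24.1, 25.1 and 25.3 CPM, and the parental libraries 23.1, 23.9, 23.3 and 24.1 CPM. Every tumor-primed library lay below every other library, while the spleen-primed and parental libraries overlapped. Tumor-primed cells had a log2 fold change of -0.41 ± 0.05 (SE) against spleen-primed and -0.36 ± 0.05 against parental cells, which is a level lower by 24.8% and by 22.0% (the values that chose the set, with no test). Spleen-primed cells differed from parental cells by 0.05 ± 0.05 on the log2 scale, also given with no test. By the log2 fold change of tumor-primed against spleen-primed cells, Spry1 stood at percentile 2.60 of all tested genes. On the TPM scale, Spry1 in tumor-primed cells relative to parental cells and to the median of all tested genes gave -0.38 log2 units, and 0.04 in the spleen-primed cells.

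Salmon assigned most Spry1 reads to the transcript Spry1-203 in the primed cells, with 91.5% or more of the gene's counts in every primed library. In the parental cells the share of Spry1-203 was 58.0%, 92.9%, 92.6% and 65.8% in replicates 1 to 4, and the transcript Spry1-201 held the remainder. Spry1-201 received no counts in the 4 spleen-primed libraries and in tumor-primed libraries 2 and 3. The split of parental libraries 1 and 4 from 2 and 3 in this share did not follow the difference of replicates 1 and 2 from 3 and 4 over all genes, and the total for the gene was even across the 4 parental libraries. An annotated transcript of uncertain status on the opposite strand, Gm42922, overlaps Spry1; the library kit keeps strand, but whether the counting used it is not given in the sources used here.

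The genes whose profile over the 12 libraries was most like that of Spry1, measured as the root mean square difference of centered log2 CPM, were Dhcr7 (0.078), Lpcat4 (0.081), Bid (0.083), Zfp672 (0.084) and Spns2 (0.084). None of them is a member of the set. Nothing is read from this, because the other members are 9 of 12555 tested genes and the Spry1 profile chose the set. The nearest member was Etv4 at 0.182, followed by Dusp4 at 0.185, and the farthest was Dusp6 at 0.426.

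Spry2 was lower in both primed groups than in parental cells. Spry2 (ENSMUSG00000022114), a single-transcript gene on the minus strand of chromosome 14 (105891947 to 105896819), had 38.0, 38.4, 35.9 and 37.3 CPM in the tumor-primed libraries. The spleen-primed libraries measured 34.8, 34.1, 36.7 and 35.0 CPM and the parental libraries 44.5, 47.1, 50.4 and 50.0 CPM. All 8 primed libraries lay below all 4 parental libraries, and the primed groups overlapped. The log2 fold change against parental cells was -0.36 ± 0.05 in the tumor-primed (adjusted p = 5.78e-05, edgeR) and -0.45 ± 0.05 in the spleen-primed cells (adjusted p = 2.23e-05, edgeR). Between the primed groups, the difference was 0.09 ± 0.05 on the log2 scale.

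Spry4 was the least abundant member by TPM, and its parental libraries disagreed. The tumor-primed libraries measured 19.9, 19.7, 17.8 and 19.2 CPM, the spleen-primed libraries 20.9, 20.0, 20.3 and 20.5 CPM, and the parental libraries 20.8, 20.9, 15.9 and 13.3 CPM. Parental replicates 1 and 2 lay with the spleen-primed libraries, whereas replicates 3 and 4 lay below every primed library. The log2 fold change against parental cells was 0.11 ± 0.12 in the tumor-primed (adjusted p = 0.435, edgeR) and 0.20 ± 0.11 in the spleen-primed cells (adjusted p = 0.161, edgeR). Without parental replicate 4, the tumor-primed value was -0.0077, and with parental replicates 3 and 4 both left out the values were -0.11 and -0.04. The tumor-primed libraries were all below the spleen-primed ones, by 0.09 ± 0.11 on the log2 scale. Gm27369 and Gm27804, annotated on the opposite strand, overlap Spry4, with the same limit on strand as for Spry1.

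SPRED proteins carry an EVH1 domain, bind neurofibromin and bring that RAS GTPase-activating protein to the membrane. Spred1 was lower in both primed groups. The tumor-primed libraries measured 225.3, 226.2, 238.4 and 215.2 CPM, the spleen-primed libraries 241.1, 220.0, 195.4 and 225.1 CPM, and the parental libraries 279.7, 282.5, 277.7 and 267.4 CPM. All 8 primed libraries lay below the parental libraries, and the lowest value was that of spleen-primed replicate 3, the library that stood apart from its group over all genes. This was a log2 fold change of -0.29 ± 0.06 in the tumor-primed (adjusted p = 0.000989, edgeR) and -0.33 ± 0.06 in the spleen-primed cells (adjusted p = 0.000644, edgeR). Without spleen-primed replicate 3, the spleen-primed value was -0.29 (adjusted p = 0.000245, edgeR). Spred1 (ENSMUSG00000027351) lies on the plus strand of chromosome 2 at 117121374 to 117182279, and Spred1-201 held 99.6% or more of its counts in every library.

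Spred2 gave no call in either comparison. Its mean was 144.7 ± 4.92 CPM in the tumor-primed, 139.8 ± 10.4 CPM in the spleen-primed and 137.8 ± 8.59 CPM in the parental cells (SD, n = 4), and the 3 groups overlapped. Against parental cells it was 0.07 ± 0.06 in the tumor-primed (adjusted p = 0.352, edgeR; interval of 2 standard errors from -0.06 to 0.20) and 0.02 ± 0.06 on the log2 scale in the spleen-primed cells (adjusted p = 0.806, edgeR; interval from -0.11 to 0.15). The spleen-primed value crossed 0 under several settings, to -0.0081 without spleen-primed replicate 2 and -0.00051 without parental replicate 3. Spred2 (ENSMUSG00000045671; chromosome 11, plus strand, 19924375 to 20024026) was split between Spred2-202, with 64.8% to 77.4% of the counts, and Spred2-201.

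The phosphatases moved in both directions. Dusp6, a cytoplasmic phosphatase selective for ERK, was the most abundant member by TPM and had the largest difference of the 10 between tumor-primed and parental cells. Dusp5, a nuclear phosphatase selective for ERK, was higher in the tumor-primed cells, whereas Dusp4, a nuclear phosphatase that acts on ERK and on JNK, was lower in both primed groups. The sequence before the start is shown for the pair that was higher.

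Dusp6: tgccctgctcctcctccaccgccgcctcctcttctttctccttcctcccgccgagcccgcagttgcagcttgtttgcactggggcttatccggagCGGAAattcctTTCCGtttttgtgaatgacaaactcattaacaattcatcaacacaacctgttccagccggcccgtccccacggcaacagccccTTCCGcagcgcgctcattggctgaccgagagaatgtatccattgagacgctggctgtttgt
Dusp5: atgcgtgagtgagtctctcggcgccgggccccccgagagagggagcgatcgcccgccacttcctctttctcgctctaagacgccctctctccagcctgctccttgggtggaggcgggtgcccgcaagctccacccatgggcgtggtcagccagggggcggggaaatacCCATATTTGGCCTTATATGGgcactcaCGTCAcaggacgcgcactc

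The Dusp6 window (RefSeq, GRCm38.p6, plus strand, chr10:99262981-99263230) is the 250 bases before the start, and the Dusp5 window (plus strand, chr19:53528895-53529108) is cut to 214 bases at the GENCODE start of the gene. Capitals mark matches on either strand to the ETS core CGGAA, to TGACG, a short form of the cAMP response element, and to the CArG box that serum response factor binds. Dusp6 holds 3 ETS cores, at 155 to 151, 144 to 140 and 61 to 57 bases before the start. Dusp5 holds CArG boxes at 82 to 73 and at 72 to 63 bases before the start and a TGACG match at 55 to 51, and a further CGGAA at 10 to 6 falls in the part not shown. A CArG box occurs in 1.47% of the 32851 RefSeq promoters of the same length, TGACG in 17.8% and CGGAA in 25.2%. The longer ETS motif CCGGAAG, which contains CGGAA (6.91% of promoters), the AP-1 motif TGANTCA (6.75%), the STAT motif TTCNNNGAA (7.02%) and the E-box CACGTG (6.02%) were found in none of the 8 promoters of the 7 members with an entry, Spry1, Spry2, Spred1, Spred2, Dusp5, Dusp6 and Etv5. Of these, Dusp5, Dusp6, Spred1 and Spred2 held the CGGAA core, Dusp5 and Spred2 held TGACG, and Dusp5 alone held a CArG box. A match is a description of letters, not of binding.

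Dusp6 (ENSMUSG00000019960; chromosome 10, plus strand, 99263231 to 99267489) measured 351.5, 340.9, 347.0 and 305.1 CPM in the tumor-primed libraries. The spleen-primed libraries measured 251.5, 261.2, 254.3 and 273.2 CPM and the parental libraries 229.6, 234.7, 208.4 and 208.1 CPM. The 3 groups did not overlap, with the tumor-primed libraries highest and the parental libraries lowest. Against parental cells the log2 fold change was 0.61 ± 0.06 in the tumor-primed (1.53-fold, adjusted p = 2.56e-06, edgeR) and 0.24 ± 0.06 in the spleen-primed cells (1.18-fold, adjusted p = 0.00488, edgeR). The difference between the primed groups was 0.37 ± 0.06 on the log2 scale, given without a test. With parental replicates 3 and 4 left out, the spleen-primed value fell to 0.15 with an adjusted p of 0.0998 (edgeR), and the tumor-primed value was 0.54. Dusp6-201 held 81.2% to 89.0% of the counts and the processed transcript Dusp6-203 10.9% to 18.0%, and the tumor-primed libraries overlapped both other groups for each transcript. The spleen-primed and parental libraries did not overlap: Dusp6-201 lay between 81.2% and 85.1% in the spleen-primed and between 85.2% and 89.0% in the parental libraries, and Dusp6-203 between 14.6% and 18.0% and between 10.9% and 14.4%, given as a description. The share of all transcripts with such a separation was not counted.

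For a gene chosen after its values were seen, Dusp6 was closest in profile to Qsox1 (0.04) and Serpine2 (0.045) by the measure used for Spry1. Among the members its nearest was Dusp5 at 0.185.

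Dusp5 (ENSMUSG00000034765; chromosome 19, plus strand, 53529109 to 53542431) measured 28.1, 28.5, 25.3 and 30.8 CPM in the tumor-primed, 23.6, 25.0, 28.3 and 25.6 CPM in the spleen-primed and 21.9, 24.5, 24.3 and 20.7 CPM in the parental libraries. The tumor-primed libraries all lay above the parental ones, and the spleen-primed libraries overlapped both. The log2 fold change against parental cells was 0.30 ± 0.08 in the tumor-primed (1.23-fold, adjusted p = 0.00424, edgeR) and 0.16 ± 0.08 in the spleen-primed cells (adjusted p = 0.0976, edgeR; interval of 2 standard errors from 0.01 to 0.32). An antisense gene, AC137853.2, overlaps Dusp5, with the same limit on strand as for Spry1.

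Dusp4 (ENSMUSG00000031530; chromosome 8, plus strand, 34807297 to 34819894) measured 112.6, 109.4, 111.8 and 117.3 CPM in the tumor-primed, 119.7, 119.3, 99.2 and 117.0 CPM in the spleen-primed and 126.8, 131.5, 123.2 and 134.7 CPM in the parental libraries. All primed libraries lay below the parental ones, and spleen-primed replicate 3 was the lowest. Its log2 fold change was -0.19 ± 0.06 in the tumor-primed (adjusted p = 0.0156, edgeR) and -0.18 ± 0.06 in the spleen-primed cells (adjusted p = 0.0273, edgeR), and -0.01 ± 0.06 between the primed groups. Without spleen-primed replicate 3, the spleen-primed value was -0.14 (adjusted p = 0.0218, edgeR). The tumor-primed call was lost with protein-coding transcripts alone (adjusted p = 0.0519, edgeR) and without parental replicates 3 and 4 (0.0627). The spleen-primed call was lost without parental replicate 2 (adjusted p = 0.0503, edgeR), without parental replicate 4 (0.0639), without both replicates 3 and 4 (0.0708), with protein-coding transcripts alone (0.0826) and in a fit of the 8 libraries compared (0.0519). The direction against parental cells was the same in all 21 alternatives.

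Of the ETS factors, Etv4 was called lower in the tumor-primed cells, by a call that single libraries could end, and Etv5 was not called. Etv4 (ENSMUSG00000017724; chromosome 11, minus strand, 101769742 to 101785371) measured 110.9, 114.9, 110.0 and 111.5 CPM in the tumor-primed libraries and 106.5, 119.3, 129.2 and 113.7 CPM in the spleen-primed libraries. The parental libraries measured 118.7, 114.6, 139.8 and 156.9 CPM, with replicates 3 and 4 above every primed library and replicates 1 and 2 within the range of the primed cells. The log2 fold change against parental cells was -0.24 ± 0.09 in the tumor-primed (adjusted p = 0.0297, edgeR) and -0.18 ± 0.09 in the spleen-primed cells (adjusted p = 0.116, edgeR). The tumor-primed call was lost without any one of tumor-primed replicates 1 (adjusted p = 0.0597, edgeR), 3 (0.0646) and 4 (0.0547) and parental replicates 3 (0.0755) and 4 (0.101). With both parental replicates 3 and 4 left out the values were -0.05 (adjusted p = 0.574, edgeR) and -0.01 (0.966). The spleen-primed difference passed the threshold without spleen-primed replicate 3 (-0.25, adjusted p = 0.0437, edgeR), without parental replicate 2 (-0.24, 0.0324) and with protein-coding transcripts alone (-0.24, 0.0494).

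A transcript of Etv4 separated primed from parental libraries where the gene's total overlapped. The processed transcript Etv4-207, annotated as not coding for protein, held 15.1%, 14.4%, 12.2% and 13.2% of the gene's counts in the tumor-primed and 10.7%, 12.1%, 15.4% and 13.3% in the spleen-primed libraries. In the parental libraries it held 5.14%, 5.05%, 6.61% and 1.63%. The 8 primed libraries all lay above the 4 parental ones, with 365 to 548 counts compared with 64 to 221. Among the other common transcripts, the coding Etv4-201 and Etv4-202 overlapped between all groups. These shares are model-based estimates over 12 overlapping transcripts and are given as a description. How many transcripts of all genes separate these groups was not counted, so the separation is not read as particular to Etv4. When the fit took account of each library's mean transcript length, the Etv4 difference in the tumor-primed cells was -0.12 with an adjusted p of 0.325 (edgeR). With protein-coding transcripts alone, the same difference was -0.33 and was still called.

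**Figure D3:**
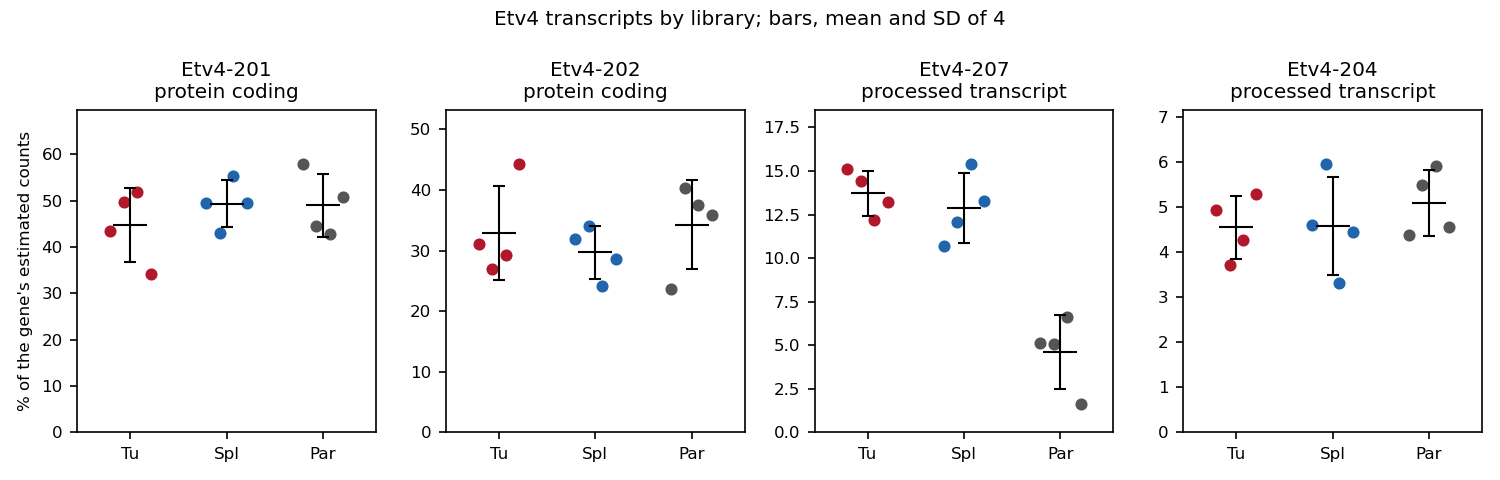
Share of the Etv4 counts (percent, vertical axes from 0) assigned to its 4 most used transcripts in each tumor-primed (Tu, red), spleen-primed (Spl, blue) and parental (Par, gray) library, with mean and SD. Etv4-207 lies between 10.7% and 15.4% in primed cells and between 1.63% and 6.61% in parental cells, and the other 3 transcripts overlap between groups.

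Etv5 (ENSMUSG00000013089; chromosome 16, minus strand, 22381309 to 22439719) gave no call. Its mean was 78.1 ± 2.07 CPM in the tumor-primed, 76.3 ± 6.33 CPM in the spleen-primed and 81.5 ± 4.40 CPM in the parental cells (SD, n = 4), with overlap between all groups. Its log2 fold change was -0.06 ± 0.06 in the tumor-primed (adjusted p = 0.42, edgeR; interval of 2 standard errors from -0.19 to 0.06) and -0.09 ± 0.06 in the spleen-primed cells (adjusted p = 0.227, edgeR; interval from -0.22 to 0.03).

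Levels were compared between genes on the TPM scale, which accounts for transcript length, and only within a group. The scale of TPM differed between groups: the short mitochondrial transcript mt-Atp8 held 4.52% to 7.05% of all TPM in the primed libraries and 10.2% to 15.0% in the parental ones, and the median log2 TPM of the tested genes lay 0.32 to 0.53 above the parental mean in the primed libraries. In the tumor-primed cells the order was Dusp6 (264.2 ± 15.7 TPM, SD, n = 4), Etv4 (113.9 ± 4.61), Dusp4 (62.0 ± 2.31), Spred2 (56.0 ± 3.13), Spred1 (54.2 ± 3.26), Etv5 (28.8 ± 1.15), Spry2 (27.8 ± 0.301), Dusp5 (17.3 ± 1.19), Spry1 (11.4 ± 0.232) and Spry4 (5.82 ± 0.183). Within this order Spred2 and Spred1, and Etv5 and Spry2, overlapped with their neighbor, and the remaining neighbors did not. Dusp6 and Etv4 led and Spry4 was last in all 3 groups. Dusp5 stood above Spry1 without overlap in the tumor-primed cells, whereas their ranges overlapped in the spleen-primed (15.1 ± 0.988 and 14.6 ± 0.892 TPM) and in the parental cells (10.3 ± 1.66 and 10.6 ± 1.12 TPM). Nothing is read from this order, because Spry1 was picked for being lower in the tumor-primed cells.

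**Figure D4:**
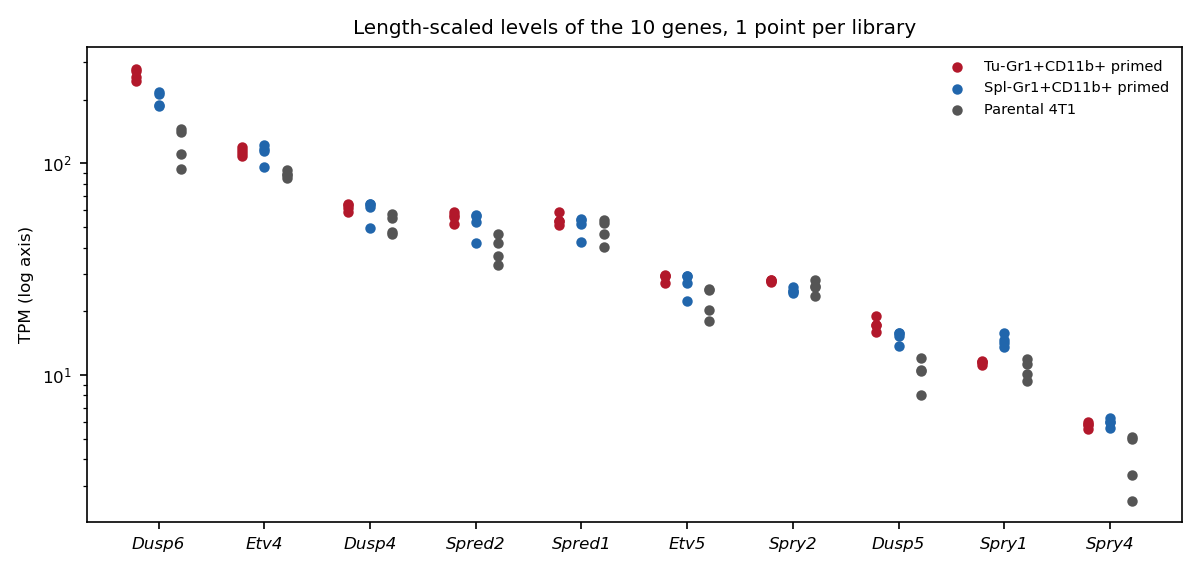
TPM (logarithmic vertical axis) of the 10 genes in each library, ordered by the mean of the tumor-primed cells, with 1 point per library in red (tumor-primed), blue (spleen-primed) and gray (parental). Dusp6 and Etv4 are at the top and Spry4 at the bottom in each group, on a scale whose total includes mt-Atp8.

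The rest of the pathway was described with 7 lists of 108 genes by role, of which 91 were tested. Against parental cells, 38 of them (41.8%) were called higher and 13 (14.3%) lower after tumor priming, where 31.2% and 28.0% of all tested genes were. After spleen priming 28 (30.8%) were higher and 16 (17.6%) lower, beside 25.7% and 22.5% of all genes. Some of these genes were low in the parental cells and could pass the filter through the primed groups alone. Over the 87 with 10 counts or more in every parental library, 34 (39.1%) were higher and 13 (14.9%) lower after tumor priming. Of all tested genes with such counts, 30.1% and 30.0% were. After spleen priming the counts were 26 (29.9%) and 16 (18.4%), beside 25.0% and 24.2%. The 7 lists hold 7 to 17 tested genes each, and their counts describe the named genes; none is read as particular to a list.

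Ligands of the EGF, FGF and PDGF families had calls in each primed group. Of 20 ligands, 11 were tested, and 10 (90.9%) were called higher and 0 lower in the tumor-primed cells, and 6 (54.5%) higher and 1 (9.09%) lower in the spleen-primed cells. Low genes could pass the filter through the primed groups alone, which sets their direction: Egf had 1 to 4 counts in the parental and 12 to 28 in the primed libraries, Fgf7 had 4 to 14 and 10 to 21, and Epgn had 6 to 27 and 14 to 41. Over the 8 ligands with 10 counts or more in every parental library, 7 (87.5%) were higher in the tumor-primed cells, where 30.1% of all tested genes with such counts were, and 5 (62.5%) were higher and 1 (12.5%) lower in the spleen-primed cells, beside 25.0% and 24.2%. Areg, which encodes the EGF receptor ligand amphiregulin, had a log2 fold change of 0.78 ± 0.10 in the tumor-primed (adjusted p = 2.35e-05, edgeR) and 0.17 ± 0.10 in the spleen-primed cells (adjusted p = 0.187, edgeR). Fgf1 was higher in both, at 1.46 ± 0.20 (adjusted p = 3.11e-05, edgeR) and 1.29 ± 0.20, with 59 to 70 counts in the tumor-primed, 46 to 70 in the spleen-primed and 14 to 28 in the parental libraries. Hbegf was also higher in both (0.36 ± 0.06 and 0.34 ± 0.06). The neuregulin gene Nrg1 was lower in the spleen-primed cells at -0.41 ± 0.07 (adjusted p = 0.000562, edgeR), and had -0.16 ± 0.07 in the tumor-primed cells (adjusted p = 0.0772, edgeR). The 9 untested ligands had at most 7 counts in a library.

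Receptors and adaptors had calls in both directions. Values of a pair in this and the following paragraphs are log2 fold changes against parental cells in the tumor-primed and then in the spleen-primed cells. Of 9 tested receptors, 22.2% were called higher and 11.1% lower in each primed group. Over all tested genes, 31.2% were higher and 28.0% lower in the tumor-primed and 25.7% and 22.5% in the spleen-primed cells. Fgfr1 was higher in both (0.27 ± 0.10 and 0.33 ± 0.10). Pdgfra was called higher in the tumor-primed cells alone (0.83 ± 0.12, adjusted p = 5.96e-05, and 0.20 ± 0.12, adjusted p = 0.18, edgeR), and Fgfr3 in the spleen-primed cells alone (0.14 ± 0.11 and 0.36 ± 0.11). Erbb2 was called lower in the tumor-primed cells (-0.26 ± 0.07 and -0.14 ± 0.07) and Met in the spleen-primed cells (-0.20 ± 0.10 and -0.26 ± 0.10). Calls made in 1 primed group alone do not show a difference between the primed groups, and calls for that contrast are not given, because it chose the set. Of 16 tested adaptors and RAS activators, 5 were higher (31.2%) and 2 lower (12.5%) in the tumor-primed and 2 higher (12.5%) and 5 lower (31.2%) in the spleen-primed cells, beside the shares of all tested genes given for the receptors. The adaptors Shc1 (0.22 ± 0.05 and 0.20 ± 0.05) and Frs3 (0.98 ± 0.29 and 0.95 ± 0.29) were higher in both, where Frs3 rested on 33 to 50 counts in the primed and 9 to 29 in the parental libraries and its CPM overlapped between the groups, and Hras (-0.78 ± 0.10 and -0.54 ± 0.10) and the phosphatase gene Ptpn11 (-0.19 ± 0.07 and -0.22 ± 0.07) were lower in both. The docking protein gene Gab2 was called lower in the spleen-primed cells alone (-0.19 ± 0.10 and -0.45 ± 0.10). Of 7 tested RAS GTPase-activating proteins, the group to which neurofibromin belongs, 4 (57.1%) were higher in the tumor-primed cells, beside 31.2% of all tested genes, and 3 (42.9%) in the spleen-primed cells, beside 25.7%, and 0 were lower in either, with Rasa3 at 0.43 ± 0.05 and 0.25 ± 0.05 and Rasa2 at 0.46 ± 0.11 and 0.44 ± 0.11.

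Kinases and scaffolds were called in shares near those of all genes in the tumor-primed cells. Of 16 tested, 6 were higher (37.5%) and 5 lower (31.2%) in the tumor-primed cells and 5 and 5 (31.2% each) in the spleen-primed cells. The shares of all tested genes were 31.2% and 28.0%, and 25.7% and 22.5%. The RAF kinase gene Araf was higher in both (0.61 ± 0.05 and 0.64 ± 0.05), and so was the scaffold gene Lamtor3 (0.45 ± 0.06 and 0.46 ± 0.06). The MEK genes moved apart in both primed groups. Map2k1 was higher, at 0.49 ± 0.05 (adjusted p = 5.8e-06, edgeR) and 0.31 ± 0.05 (adjusted p = 0.000413, edgeR), and Map2k2 was lower, at -0.89 ± 0.10 (adjusted p = 6e-06, edgeR) and -0.65 ± 0.10 (adjusted p = 0.000136, edgeR). Rps6ka1 (-0.42 ± 0.07 and -0.32 ± 0.07) and the scaffold gene Iqgap1 (-0.42 ± 0.09 and -0.48 ± 0.09) were also lower in both.

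Feedback inhibitors outside the 10 genes also had calls in both directions. Of 17 tested, 6 were higher (35.3%) and 4 lower (23.5%) in the tumor-primed and 6 higher (35.3%) and 3 lower (17.6%) in the spleen-primed cells. These stand beside 31.2% and 28.0% of all tested genes after tumor priming and 25.7% and 22.5% after spleen priming. Errfi1, which encodes an inhibitor of the EGF receptor kinase, was higher by 0.68 ± 0.05 (adjusted p = 1.86e-07, edgeR) and 0.39 ± 0.05. Spred3, the relative of Spred1 and Spred2, was higher by 0.72 ± 0.07 (adjusted p = 1.96e-06, edgeR) and 0.41 ± 0.07, where Spred1 was lower and Spred2 passed no test. Dusp9, a further ERK phosphatase, was lower, with log2 fold changes of -0.94 ± 0.09 (adjusted p = 1.63e-06, edgeR) and -0.44 ± 0.09, where Dusp6 was higher, and the RAF inhibitor gene Pebp1 was lower at -0.42 ± 0.07 and -0.35 ± 0.07.

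Of 15 output genes of the pathway, all tested, 5 were higher (33.3%) and 1 lower (6.67%) in the tumor-primed and 4 higher (26.7%) and 1 lower (6.67%) in the spleen-primed cells. The shares called higher were near those of all tested genes, 31.2% and 25.7%, where 28.0% and 22.5% were called lower. The early response genes Ier3 (0.61 ± 0.06, adjusted p = 1.3e-06, and 0.19 ± 0.06, adjusted p = 0.0111, edgeR), Fos (1.39 ± 0.19, adjusted p = 2.95e-05, and 0.63 ± 0.19, adjusted p = 0.0151, edgeR) and Egr1 (0.58 ± 0.09 and 0.34 ± 0.09) were higher in both primed groups. Fos rested on 77 to 104 counts in the tumor-primed and 19 to 42 in the parental libraries. Myc was called higher in the spleen-primed cells (0.32 ± 0.07, adjusted p = 0.00317, edgeR) and had 0.18 ± 0.07 in the tumor-primed cells (adjusted p = 0.0539, edgeR). Ccnd1, which encodes cyclin D1, was lower in both (-0.36 ± 0.04 and -0.25 ± 0.04). Among the members other than Spry1, those called in the tumor-primed cells were Dusp5 and Dusp6 (higher) and Spry2, Spred1, Dusp4 and Etv4 (lower). The output genes called there were Fos, Ier3, Egr1, Egr2 and Etv1 (higher) and Ccnd1 (lower). The remaining 9 of the 15 were not called, among them the early response genes Ier2, Egr3 and Fosl1. A relation between members and output genes was not tested.

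**Figure D5:**
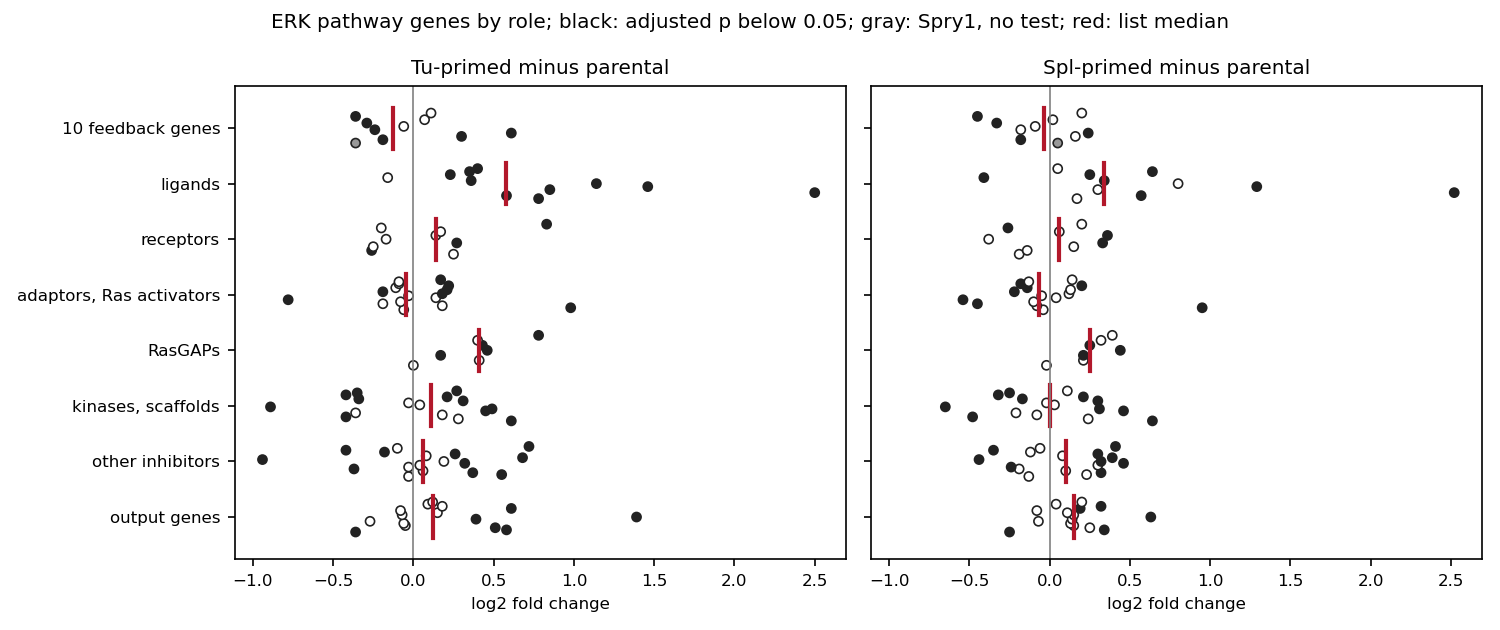
Log2 fold change (horizontal axes) of every tested gene of the 10 feedback genes and of the 7 role lists in tumor-primed (left) and spleen-primed (right) cells against parental cells. Black points passed an adjusted p of 0.05, open points did not, the gray points are Spry1, given without a test, and red lines are list medians. The median of the 10 feedback genes, Spry1 included, is at -0.13 and -0.04, and the ligand farthest to the right is Egf, at 1 to 4 counts in the parental libraries.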

How the data were processed

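RNA-seq libraries of 4T1 cells were made with a stranded TruSeq kit from total RNA lysed in the well. Per the labels and the submitters' processing notes, reads were checked with FastQC, trimmed with Trimmomatic 0.39 and quantified with Salmon 1.4.0 on GRCm38 (mm10). The deposited file of each library gives an estimated count and a TPM value per Ensembl transcript, neither normalized between libraries by the authors beyond the TPM scale. The annotation release is not given in the sources used here. A deposited table of normalized counts per gene was not used.

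Estimated counts were summed per gene with GENCODE vM21 (transcripts outside it held 0.326% to 0.419% of counts), rounded, and analysed with edgeR 4.0.16 in R 4.3.3: filterByExpr, TMM factors, 1 quasi-likelihood fit over all 12 libraries with group as the sole term, and Benjamini-Hochberg adjustment over 12555 genes with a threshold of 0.05. Standard errors were obtained as the ratio of the log2 fold change to the square root of the F statistic. Each p-value rests on 4 libraries a group, with totals of 24566183 to 31637755 counts. Log2 CPM used a prior count of 2, and TPM a pseudocount of 0.1. The procedure was also run on simulated counts, drawn independently for each gene and library. These hold no shift of many genes between replicates, such as that among the parental libraries, so no conclusion is drawn from them here.

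Members and lists were chosen with earlier results of these data known. Named were the 10 members, per role list the leading 2 genes by p, higher and lower separately, of those called against parental cells, and the 5 genes nearest to Spry1. Egf, Fgf7, Epgn and the counts of ligands and of all role lists by parental counts were added after the values were seen. Calls between the primed groups are not given, because that contrast chose the set. Alternatives were DESeq2 1.42.0, RLE scaling, length offsets, no filter, 10 counts in every library, protein-coding transcripts, 8 libraries, the replicate block and each library left out, and, chosen after seeing the data, parental replicates 3 and 4 left out together. Promoters came from RefSeq (GRCm38.p6), where 7 of 10 members matched.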

Additional observations from a re-analysis of the deposited data

Results flagged for a closer look

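One member value stood apart from its group. Dusp4 in spleen-primed replicate 3 was 99.2 CPM, lower than the other 3 libraries by 0.868 of the group's range, above Dixon's limit for 4 samples. Of 30 groups of member values tested, 1 passed that limit, and chance gives about 1 in 20. The same library stood apart from its group over all genes.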

How the results depend on the processing

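Over 21 alternatives, the counts of members called kept within 1.5 times their value except where parental replicates 3 and 4 were left out together: members other than Spry1 lower in tumor-primed cells went from 4 to 2 (Dusp4 and Etv4 lost), and those higher in spleen-primed cells from 1 to 0 (Dusp6 lost). The cause of these changes was not tested. For pathway genes, the number lower in spleen-primed cells was 9 with length offsets in place of 16.

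Of the members' log2 fold changes, 17 of 630 values changed sign, in the 5 cases that follow. Spry4 against parental cells lay between -0.0077 (without parental replicate 4) and 0.20 (without parental replicate 1) in tumor-primed cells with single libraries left out, and moved to -0.11 and -0.04 (tumor-primed and spleen-primed, without replicates 3 and 4). Spred2 in spleen-primed cells was -0.0037 with DESeq2, -0.0038 with RLE scaling, -0.002 with no filter, -0.0081 (without spleen-primed replicate 2) to 0.06 with single libraries left out, and -0.04 without parental replicates 3 and 4. Between the primed groups, Dusp4 was 0.0035 with no filter, 0.0022 with 8 libraries, -0.06 to 0.01 with single libraries left out, and 0.0067 without parental replicates 3 and 4, and Etv5 was -0.0068 (without spleen-primed replicate 3) to 0.06 with single libraries left out. None of the values against parental cells was called in the settings named, and those between the primed groups carry no test. The median of all genes moved by at most 0.025.

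Replicate numbers are shared between groups, but same-numbered libraries did not deviate together (correlations of -0.164 to 0.148 over 12 pairs, with 2 over 0.1, and 7 of 24 comparisons best with the library's own number), so the numbers were not taken as pairs. With the replicate block, members called were 2 higher and 4 lower in tumor-primed and 1 higher and 3 lower in spleen-primed cells, Spry1 not counted. The members had 332 or more counts in each library, while low ligands such as Egf rested on few counts. The effect of depth was not tested.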
